A study of Mus musculus with 4 samples.

Results

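Of the exon probe sets measured in embryoid bodies (EBs), 349 changed between day 4 and day 8 by an amount that set them apart from the rest of their gene, in the same direction in *Mst-/-* and in wild type EBs. EBs are floating aggregates of embryonic stem (ES) cells that start to differentiate into the germ layers. There were 4 groups, measured on Affymetrix mouse exon 1.0 ST arrays with 1 array each for *Mst-/-* EBs of day 8 and day 4 and for wild type EBs of day 8 and day 4. *Mst-/-* cells lack both Hippo pathway kinases Mst1 and Mst2, both genotypes came from blastocyst-derived ES cells, and all EBs were grown without LIF and without the inhibitors CHIR99021 and PD0325901. Of the study's *Mst-/-* ES cell lines, the one hybridized here is not stated, and the deletion is present in all cells and not in a chosen cell type.

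A probe set reads a stretch of an exon, and its value is a log2 signal. The change of a probe set is its day 8 signal minus its day 4 signal in 1 genotype. Its departure is that change minus the median change over all probe sets of the same gene, so that a departure of 1 means a change 2-fold larger than that of the gene. Members had a departure above 1 in both genotypes (called higher members below) or below -1 in both (lower members). They were sought among genes with at least 5 probe sets of 1 gene symbol and a median signal above 7.5 on all 4 arrays, and the probe set itself had to be above 7.5 on at least 1 array. This left 126253 probe sets in 8668 genes, out of 229581 probe sets on the array. Of these, 155 probe sets in 83 genes were higher members, 0.123% of those tested, and 194 probe sets in 117 genes were lower members, 0.154%. The members lay in 183 genes, 2.11% of the genes tested (0.958% with a higher and 1.35% with a lower member), and 17 genes held members of both directions. Since departures of all 4 arrays chose the members, these counts and the departures below are descriptions. With 1 array per group no spread between replicates is known, and no test is given.

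One gene can give several RNAs. Transcription can begin at alternative promoters, which changes the first exons, internal exons can be included or skipped by splicing factors such as those of the Rbfox, Mbnl and Esrp families, and transcripts can end at different sites. Such choices are known to shift when pluripotent cells leave self-renewal and form muscle, endoderm, blood or mesenchyme. An exon probe set that moves against its gene can be a readout of such a choice. It does not by itself show one, nor which transcript was read. Where in its gene each probe set lies was not analysed here, and whether each probe set follows the RNA of its gene was not tested. In EBs, which hold many cell types, fewer cells of a type and less RNA per cell cannot be told apart.

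The targeted gene *Stk4*, which codes for Mst1, had 2 of 13 probe sets between 3.83 and 4.80 on the *Mst-/-* arrays and between 11.42 and 12.03 on the wild type arrays. The day 8 *Mst-/-* array carries day 4 in its description label and day 8 in its title and cell type label, and it was taken as day 8. Of 22 markers of pluripotent, streak, vascular, heart, endoderm, neural and stromal cells, 8 were higher and 3 lower at day 8 by more than 1 in both genotypes, 6 passed 1 in only 1 genotype and 5 in neither. The streak gene *T* was at 9.91 at day 8 and 11.83 at day 4 in *Mst-/-* EBs, and at 8.31 and 12.52 in wild type EBs. The heart muscle gene *Tnnt2* was at 10.58 and 7.10 in *Mst-/-* EBs, and at 11.79 and 7.72 in wild type EBs, again day 8 before day 4. The heart gene *Nkx2-5* changed less, by 0.66 in *Mst-/-* EBs and 0.49 in wild type EBs. The vascular markers differed among themselves. The endothelial gene *Pecam1* changed by -0.02 in *Mst-/-* EBs and by 2.58 in wild type EBs. *Kdr*, a receptor of blood and vessel progenitors, changed by 2.72 and -0.26, and the endothelial gene *Cdh5* by 2.825 and 2.795. Of the neural markers *Pax6* was below 7.5 on all 4 arrays, while *Sox1* (8.64 to 9.07) and *Nes* (7.53 to 8.74) were above it on all 4.

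In 37 genes a member moved while the gene, averaged over the genotypes, did not (classes below). Of the 32 with a RefSeq transcription start, 14 (43.8%) had at least 2 starts more than 300 bases apart. The share over all 7093 tested genes with a RefSeq start was 16.1%. The 2 shares were not compared at equal numbers of probe sets. The bases upstream of the starts of 3 of them, chosen after their values were seen, are shown because the choice of a start is the kind of event such a probe set can read. *Tfeb* codes for a transcription factor of lysosomal genes, *Hoxd11* for a posterior homeobox factor, and *Mia2* for proteins of the exit sites of the endoplasmic reticulum, which help to load large secreted cargo. Each line gives the 100 bases just before a start of RefSeq GRCm38.p6, on the plus strand, with matches to the TATA box TATAAA, the GC box GGGCGG and the CCAAT box CCAAT, on either strand, in capitals.
*Tfeb* start 1, chr17:47736937-47737036: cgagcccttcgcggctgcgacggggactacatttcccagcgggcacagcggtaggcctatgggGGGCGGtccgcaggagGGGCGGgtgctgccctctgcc
*Tfeb* start 2, chr17:47737831-47737930: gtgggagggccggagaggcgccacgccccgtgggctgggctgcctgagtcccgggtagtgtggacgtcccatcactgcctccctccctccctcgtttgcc
*Tfeb* start 3, chr17:47785644-47785743: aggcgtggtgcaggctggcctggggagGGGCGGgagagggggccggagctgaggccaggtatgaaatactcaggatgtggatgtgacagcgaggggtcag
*Hoxd11* start 1, chr2:74679458-74679557: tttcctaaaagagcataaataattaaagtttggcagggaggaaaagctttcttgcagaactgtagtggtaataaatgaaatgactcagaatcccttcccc
*Hoxd11* start 2, chr2:74682223-74682322: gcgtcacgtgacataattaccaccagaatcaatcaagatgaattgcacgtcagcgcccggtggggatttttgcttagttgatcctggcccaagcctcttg
*Mia2* start 1, chr12:59095491-59095590: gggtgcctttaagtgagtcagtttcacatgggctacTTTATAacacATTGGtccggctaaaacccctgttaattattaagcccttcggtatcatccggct
*Mia2* start 2, chr12:59129648-59129747: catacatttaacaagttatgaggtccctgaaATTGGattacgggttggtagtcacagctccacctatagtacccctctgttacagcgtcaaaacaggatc
*Mia2* start 3, chr12:59131381-59131480: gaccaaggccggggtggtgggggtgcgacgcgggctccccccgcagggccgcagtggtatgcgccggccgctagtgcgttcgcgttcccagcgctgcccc

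The windows of a gene differed in composition. Start 1 of *Tfeb* held 2 GC boxes and 10 CG dinucleotides, while start 3 held 1 GC box and 4 CG dinucleotides. *Mia2* start 1 held a TATA box and a CCAAT box with 3 CG dinucleotides, and start 3 held neither box and 13 CG dinucleotides. *Hoxd11* start 1 had 37% G and C and no CG dinucleotide, start 2 had 50% and 5. Over all 32851 RefSeq windows of this length, 5.56% held TATAAA, 24.7% held GGGCGG and 18.9% held CCAAT, and the median number of CG dinucleotides was 3. A match is a description of letters, and its link to the signals was not tested. RefSeq starts were matched for 137 of the 183 genes with a member. Of these, 36 (26.3%) had at least 2 such starts, against 16.1% of the 7093 tested genes with a match. Genes with many probe sets have more chances to hold a member. Among genes with 10 to 19 probe sets the shares were 31% for genes with a member (22 of 71) and 16.6% for all. Among genes with 20 or more they were 25.5% (12 of 47) and 20.1%. With 5 to 9 probe sets they were 10.5% (2 of 19) and 11.7%.

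Departures were small for most probe sets. Their SD over all probe sets tested was 0.27 in *Mst-/-* EBs and 0.29 in wild type EBs, and their correlation across probe sets between the genotypes was 0.38, where probe sets of 1 gene share its median and are not independent. A departure above 1 was seen for 572 probe sets in *Mst-/-* EBs (0.453%) and 630 in wild type EBs (0.499%), and a departure below -1 for 679 (0.538%) and 747 (0.592%). The arrays of 1 genotype can be read for probe sets chosen on the other. Of the 630 probe sets above 1 in wild type EBs, 155 (24.6%) were above 1 in *Mst-/-* EBs, 510 (81%) had a positive departure there, and 4 were below -1. Of the 747 below -1 in wild type EBs, 194 (26%) were below -1 in *Mst-/-* EBs and 628 (84.1%) had a negative departure. Chosen in *Mst-/-* EBs and read in wild type EBs, the shares past the threshold were 27.1% and 28.6%. Most probe sets past the threshold in 1 genotype thus stayed within it in the other, while their direction was usually shared.

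**Figure D1:**
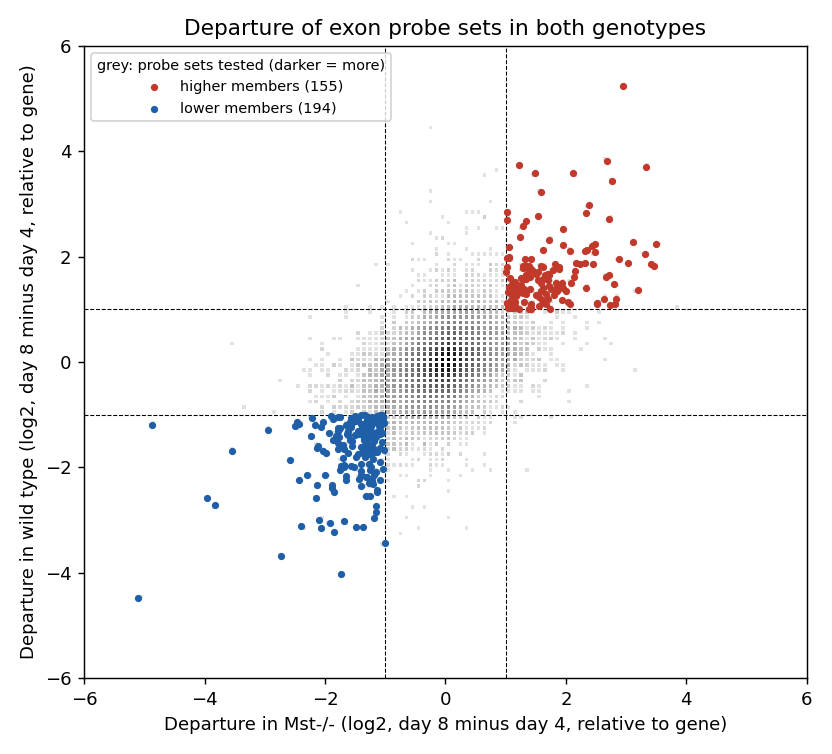
Departure of each probe set in *Mst-/-* EBs (x axis) against wild type EBs (y axis), in log2 units of day 8 minus day 4 relative to the gene; grey squares are all 126253 probe sets tested, coloured points the members and dashed lines the thresholds at 1 and -1. The 155 higher members fill the upper right corner and the 194 lower members the lower left, with departures from -5.10 to 3.5 in *Mst-/-* EBs and from -4.48 to 5.24 in wild type EBs.

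At the threshold, *Pcolce2* was just inside for higher members with departures of 1.005 in *Mst-/-* EBs and 1.715 in wild type EBs, and *Ank3* with 1.385 and 1.005. Just outside lay *Col2a1* with 1.00 and 1.17 and *Slc6a15* with 1.58 and 1.00. For lower members *Myo18a* with -1.09 and -1.005 and *Jun* with -1.40 and -1.01 were just inside, and *Fras1* with -1.305 and -1 and *Fam114a1* with -1.51 and -1 just outside. Members and other probe sets at the threshold thus hardly differed. In both genotypes 28 members were past 2 in size, 17 of them higher and 11 lower. There were 9 probe sets that passed the threshold on opposite sides in the genotypes. In *Mst-/-* EBs 5 of them were above 1 (*Foxp1*, *Gramd1b*, *Hnrnpk*, *Nkx1-2*, *Wwox*), and 4 were below -1 (3 of *Sgk1* and 1 of *Sox17*).

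Higher and lower members differed in what moved. Averaged over the genotypes, 41 higher members and 7 lower members changed by at least 1 while their gene changed by less than 0.5, together 48 or 13.8%. The reverse, a gene that changed by at least 1 around a probe set that changed by less than 0.5, held for 115 members (33%), of which 112 were lower members. In 165 members (47.3%) probe set and gene moved the same way by unequal amounts, in 9 they moved in opposite directions, and 12 fell in no class. These classes use the mean of both genotypes, so a gene classed as level could still move in 1 genotype or in opposite directions. *Inpp5d* changed by -0.89 in *Mst-/-* EBs and by 1.005 in wild type EBs, and *Dlc1* by 0.465 and -0.77. *Dlc1* joins several array symbols, as described for *Mia2* below. With values under 7 raised to 7, both departures stayed past the threshold in the same direction for 94 of 155 higher members (60.6%) and 156 of 194 lower members (80.4%). Of the 41 higher and 7 lower members that moved in a level gene 16 and 3 did, and of the 112 lower members around a moving gene 98 did. Members were more common where the gene itself moved. Within 0.5 of no change they were 0.0523% of probe sets, 51 of 97557, while in genes that rose by 1 to 2 they were 2.53% and in genes that rose by 2 or more 13.1%. In genes that fell by 1 to 2 they were 0.256%, 3 of 1170 probe sets, and in genes that fell by 2 or more 8.33%, 6 of 72 probe sets in 3 genes.

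**Figure D2:**
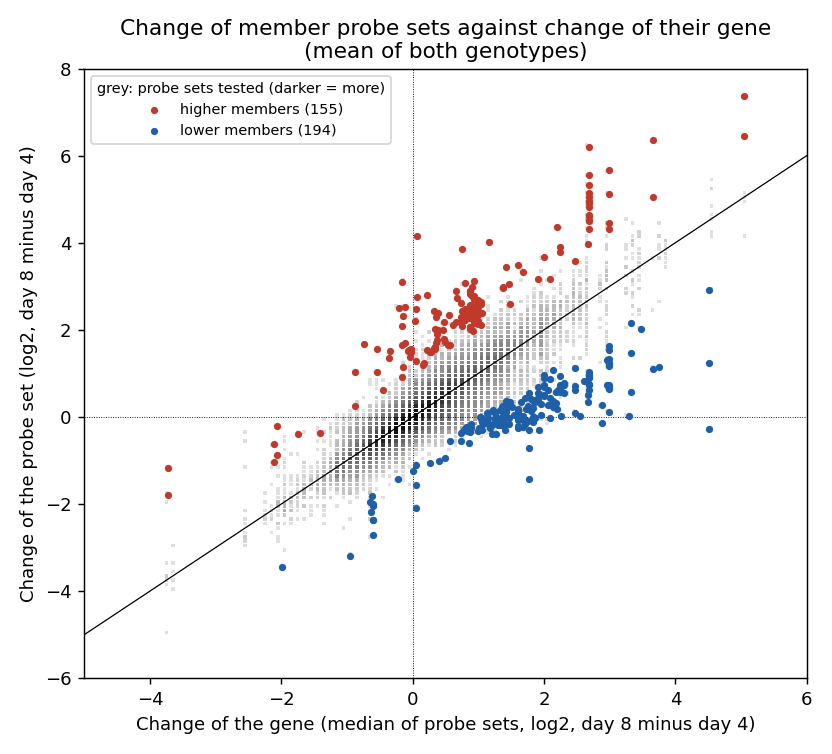
Change of the probe set (y axis) against the median change of its gene (x axis), both in log2 units of day 8 minus day 4 averaged over *Mst-/-* and wild type EBs; grey squares are all probe sets tested, and the line marks equal change. Lower members lie along a probe set change near 0 (median 0.08) where the gene change is positive (median 1.655), and higher members lie above the line (medians 2.41 and 0.88).

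In genes that stayed level the departures were on a few probe sets each. *Hoxd11* had 9 probe sets. Its probe set 5396842 was at 7.77 at day 8 and 4.75 at day 4 in *Mst-/-* EBs, and at 9.14 at day 8 and 3.83 at day 4 in wild type EBs, while the median of the gene was at 8.22 and 8.26, and at 8.77 and 8.33. Probe set 4803984 behaved alike, with 7.88 and 5.43 in *Mst-/-* EBs and 8.45 and 5.39 in wild type EBs. Both members were under the floor of 7.5 at day 4, and the first was then within the range of the 2 low *Stk4* probe sets on the *Mst-/-* arrays, so that no fold is given. Their departures in *Mst-/-* EBs were 0.70 and 0.81, no longer past the threshold, with values under 7 raised to 7. Of the other 7 probe sets, 5297562 changed by 0.68 in *Mst-/-* EBs and by 2.79 in wild type EBs.

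*Tfeb*, listed on the array as *Tcfeb* and named here after its values were seen, had 17 probe sets. Probe set 4964013 was at 11.53 at day 8 and 9.19 at day 4 in *Mst-/-* EBs, a 5.06-fold change, and at 12.22 and 10.16 in wild type EBs, a 4.17-fold change. The median of the gene was at 8.51 and 8.64, and at 8.05 and 7.76. The other 16 probe sets changed by -0.64 to 0.42 in *Mst-/-* EBs and by -1.13 to 1.62 in wild type EBs. Among them, 5606309 was as bright as the member at day 8 and nearly level, with 11.91 and 11.83 in *Mst-/-* EBs and 12.15 and 11.96 in wild type EBs. The member was thus the only probe set of *Tfeb* with a change above 2 in either genotype.

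*Mia2* joins the array symbols Mia2 and Ctage5. Its 3 members all carried the array symbol Mia2, and none of the 25 probe sets of Ctage5 was a member. The brightest, 4916014, was at 8.78 at day 8 and 6.02 at day 4 in *Mst-/-* EBs, and at 8.59 and 5.15 in wild type EBs. The median of the 6 Mia2 probe sets changed by 1.665 in *Mst-/-* EBs and 1.455 in wild type EBs, and that of the Ctage5 probe sets by 0.04 and -0.40. With the array symbols as written, Mia2 and Ctage5 were read as separate genes. The Mia2 median at day 4 was then 6.02 in *Mst-/-* EBs and 5.42 in wild type EBs, under the floor for genes, and the departure of probe set 4489657 in *Mst-/-* EBs was -0.355. Of the 3 members, 1 (4916014) stayed past the threshold with values under 7 raised to 7. *Dlc1* and *Homer2* also join 2 array symbols each, and the 3 joined genes together held 5 members. The 1 higher member of *Dlc1* and that of *Homer2* carried an array symbol other than the gene name. Neither stayed past the threshold with these raised values, and their departures with array symbols as written are not given here.

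*Pcnt* codes for pericentrin, a scaffold of the centrosome. Its probe set 4962632 was at 10.08 at day 8 and 7.56 at day 4 in *Mst-/-* EBs and at 10.49 and 8.00 in wild type EBs, changes of 5.74-fold and 5.62-fold. The other 50 probe sets of *Pcnt* changed by -0.68 to 0.66 and by -0.93 to 0.25, so that the member lay outside their range in both genotypes. *Rbfox2*, a splicing factor of mesenchyme and muscle, was the sole member gene among the 33 tested splicing regulators of a chosen list. The list does not hold every gene that acts in splicing. Its probe set 4955677 was at 10.29 at day 8 and 8.36 at day 4 in *Mst-/-* EBs, and at 11.20 and 9.14 in wild type EBs. The median of *Rbfox2* changed by 0.40 and 0.51, and another of its 21 probe sets changed more in wild type EBs, by 2.33.

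Collagen genes with level medians also held higher members. In *Col9a1*, a cartilage collagen, probe set 4507148 was at 7.61 at day 8 and 5.17 at day 4 in *Mst-/-* EBs and at 8.41 and 5.26 in wild type EBs. *Col2a1*, the main cartilage collagen, had 3 higher members of 64 probe sets, and the brightest of them was at 10.23 and 8.81 in *Mst-/-* EBs and at 11.34 and 9.57 in wild type EBs. *Col6a2* had 2 of 27, with changes from 1.30 to 3.19 over both genotypes. The members of *Col2a1* stayed past the threshold with values under 7 raised to 7, and those of *Col9a1* and *Col6a2* did not in *Mst-/-* EBs, with departures of 0.61 for *Col9a1* 4507148 and of 0.0 and 0.38 in *Col6a2*. Of the lower members whose gene stayed level, *Rpl39*, a protein of the large ribosomal subunit, had the largest departures. Its probe set 5044941 was at 6.31 at day 8 and 8.12 at day 4 in *Mst-/-* EBs and at 4.30 and 6.66 in wild type EBs, while the gene was between 13.59 and 13.72 on all 4 arrays and its 6 other probe sets changed by at most 0.14. This member was thus far dimmer than its gene on every array, and with values under 7 raised to 7 its departures were -1.19 in *Mst-/-* EBs and -0.03 in wild type EBs.

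**Figure D3:**
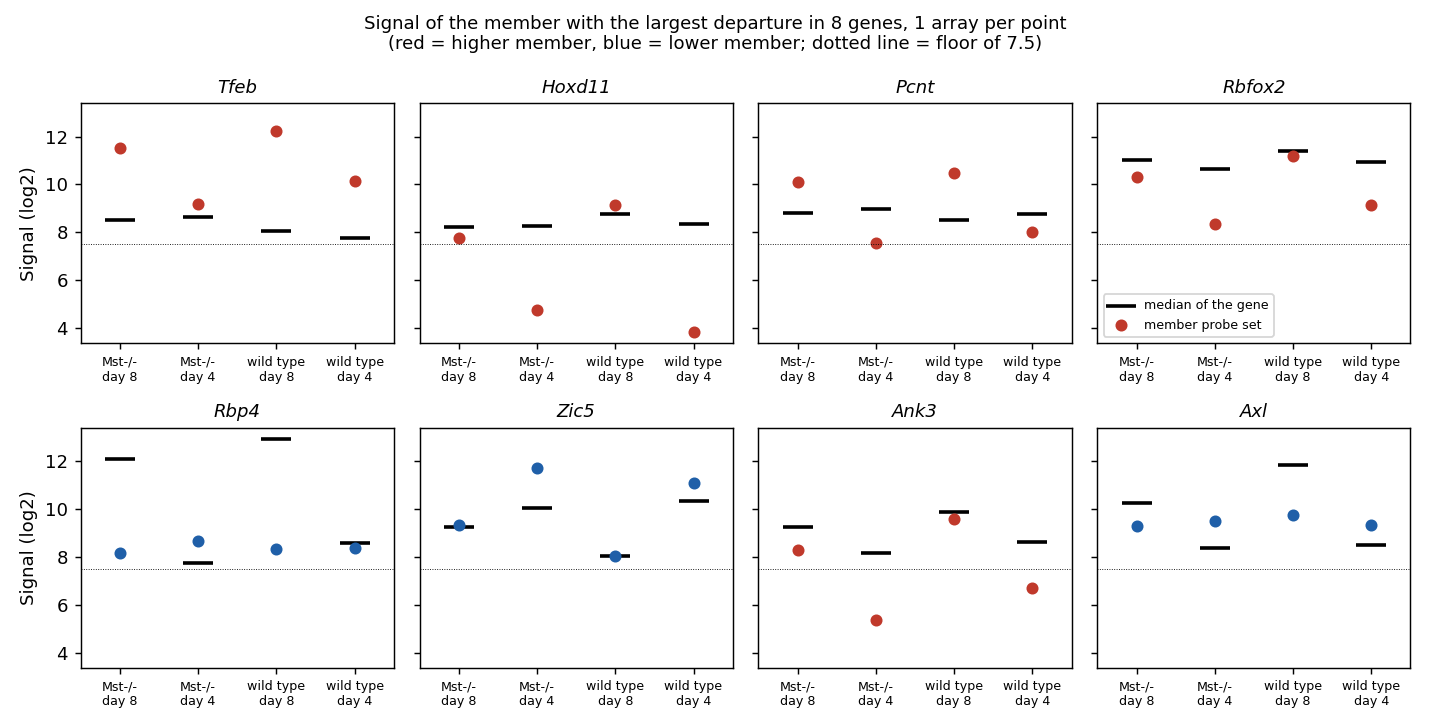
Log2 signal of the member with the largest departure of 8 genes on each array (points) and the median of the gene (bars), day 8 before day 4 and *Mst-/-* before wild type; each point is 1 array, and the dotted line is the floor of 7.5. In *Tfeb*, *Hoxd11*, *Pcnt* and *Rbfox2* the point moves between days and the bar hardly does, while in *Rbp4* and *Axl* the bar moves and the point hardly does.

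Among genes that moved with their members, those of the extracellular matrix held the most. *Col5a1*, a minor fibrillar collagen that starts fibrils, had 15 higher members of 72 probe sets. They changed by 1.64 to 3.31 in *Mst-/-* EBs, against a gene median of 0.59, and by 2.40 to 3.25 in wild type EBs, against 1.28. *Col1a1*, the main chain of collagen I, had 13 higher and 7 lower members of 53. Its higher members changed by 2.88 to 4.84 in *Mst-/-* EBs and by 5.14 to 7.75 in wild type EBs, and its lower members by 0.02 to 0.21 and by 1.09 to 1.99, around gene medians of 1.34 and 4.04. The probe set with the largest departure, 5560894, was at 8.90 at day 8 and 4.23 at day 4 in *Mst-/-* EBs and at 11.97 and 4.22 in wild type EBs. Its day 4 signals were within the range of the 2 low *Stk4* probe sets on the *Mst-/-* arrays, and with values under 7 raised to 7 its departures were 0.58 and 1.07. Of the 13 higher members 11 stayed past the threshold with raised values, and all 7 lower members did. *Col1a2*, the partner chain, had 4 higher and 10 lower members of 52, of which 1 and 5 stayed past the threshold with raised values.

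*Ank3* codes for ankyrin-G, which ties membrane proteins to the spectrin skeleton and is known for several promoters. It had 10 higher members of 48 probe sets and no lower one. The 10 were between 7.88 and 9.99 at day 8 and between 5.37 and 7.73 at day 4 in *Mst-/-* EBs, and between 8.75 and 10.92 and between 5.71 and 8.64 in wild type EBs. They changed by 1.78 to 2.91 in *Mst-/-* EBs and by 2.01 to 3.33 in wild type EBs, against gene medians of 0.75 and 1.01. *Ebf4*, a factor of the early B cell factor family, had 8 higher members of 23 with changes of 2.06 to 2.75 and 2.10 to 2.87, and 1 lower member that changed by -0.29 and -0.36. The next probe sets followed without a gap in *Ank3*, where 5599187, not a member, changed by 1.66 in *Mst-/-* EBs and 2.52 in wild type EBs. In *Ank3* 4 of the 10 higher members and in *Ebf4* 6 of the 8 stayed past the threshold with values under 7 raised to 7.

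Among other genes with higher members were transcription factors, a receptor and a muscle gene. *Pax1*, a factor of the sclerotome, had 3 higher members of 10 probe sets, and 4540879 was at 9.93 at day 8 and 6.49 at day 4 in *Mst-/-* EBs and at 10.29 and 6.03 in wild type EBs. *Zfp503*, a zinc finger repressor, had 2 higher members, and 5347065 was at 8.74 and 5.93 and at 9.48 and 6.49. *Acvrl1*, a type I receptor for BMP ligands in endothelium, had 3 of 13, and 4526476 was at 10.73 and 7.57 in *Mst-/-* EBs and at 11.46 and 8.47 in wild type EBs. Its day 8 signals exceeded those of day 4 by 8.94-fold and 7.94-fold. *Actn2*, the alpha-actinin of the sarcomere, had 1, 4355158, at 7.0 and 4.55 in *Mst-/-* EBs and at 9.60 and 4.01 in wild type EBs, and its departure in *Mst-/-* EBs turned negative when values under 7 were raised to 7. *Apoa4*, a lipoprotein component, had 2 higher members, with departures of 1.62 to 2.13 over both genotypes.

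*Ttr* and *Hba-x* were among the genes that changed most. *Ttr*, the thyroxine carrier made by visceral endoderm, had 2 higher members of 7. Probe set 5192977 was at 10.41 at day 8 and 3.07 at day 4 in *Mst-/-* EBs and at 10.54 and 3.16 in wild type EBs, and with values under 7 raised to 7 its departures were -1.33 and -1.45, while those of the other member were 0.44 and 0.45. The sign of this departure thus depended on day 4 signals below 7. *Hba-x*, the embryonic zeta globin of primitive red cells, had 5 probe sets, 2 of them higher members and 1 lower. The lower one, 5558271, was at 10.68 at day 8 and 10.62 at day 4 in *Mst-/-* EBs and at 12.59 and 10.44 in wild type EBs, and at day 4 it was the brightest member of this gene in both genotypes.

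Lower members were mostly probe sets that stayed near 1 level while their gene was higher at day 8. *Rbp4*, the retinol carrier of visceral endoderm and liver, had the largest departures. Its probe set 4952285 was at 8.19 at day 8 and 8.68 at day 4 in *Mst-/-* EBs and at 8.32 and 8.38 in wild type EBs, while the gene was at 12.10 and 7.77 and at 12.93 and 8.59. The 10 other probe sets of *Rbp4* changed by 0.78 to 5.84 and by 1.70 to 5.10. *Ctsh*, the lysosomal protease cathepsin H, had a member at 10.51 and 10.32 in *Mst-/-* EBs and at 10.42 and 10.55 in wild type EBs, with the gene at 11.75 and 7.77 and at 11.54 and 9.31. Its 14 other probe sets changed by at least 1.66 in both genotypes. *Man1a*, a mannosidase of the Golgi, and *Clu*, the secreted chaperone clusterin, each had 2 lower members, and the larger was at 8.11 and 8.53 in *Mst-/-* EBs and 8.52 and 8.71 in wild type EBs for *Man1a*, and between 10.56 and 10.76 on all arrays for *Clu*.

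*Igf2*, the imprinted growth factor with several promoters, had 2 lower members. Probe set 4506045 was at 9.76 at day 8 and 9.53 at day 4 in *Mst-/-* EBs and at 10.22 and 9.92 in wild type EBs, while the gene was at 12.84 and 9.01 and at 14.08 and 11.94. *Dlk1*, another imprinted gene, which codes for a ligand-like membrane protein, had 3, and 5386604 was at 10.23 and 10.15 in *Mst-/-* EBs and at 11.39 and 10.32 in wild type EBs. *Myl4*, the atrial myosin light chain, had 1, at 9.65 and 8.54 in *Mst-/-* EBs and at 9.84 and 8.66 in wild type EBs, with the gene at 12.52 and 8.99 and at 13.30 and 8.66. In *Igf2* and *Myl4* the members moved far less than the gene in both genotypes.

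*Hnf4a*, a nuclear receptor of endoderm known for a pair of promoters, had 2 lower members, and 5182575 was at 10.66 at day 8 and 10.84 at day 4 in *Mst-/-* EBs and at 10.90 and 11.10 in wild type EBs. *Fgfr3*, a receptor known for exclusive exons in epithelium and mesenchyme, had 2, and 5206467 was at 8.72 and 8.75 and at 8.60 and 8.63. *Tgfb2*, a growth factor of the TGF-beta family, had 1, at 10.36 and 10.33 in *Mst-/-* EBs and at 10.45 and 10.53 in wild type EBs. *Lama1*, a chain of the first basement membrane laminin, had 1, and *Fbln2*, a matrix glycoprotein, had 1 that was above 7.5 on the day 4 wild type array alone and whose departures were -0.97 and -0.54 with values under 7 raised to 7. Over all 112 lower members around a moving gene, the median signal in *Mst-/-* EBs was 9.54 at day 8 and 9.50 at day 4. In wild type EBs it was 9.80 and 9.67. Whether these level probe sets follow the RNA of their gene was not tested.

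*Zic5* and *Acer2* held members that were lower at day 8 than at day 4. *Zic5*, a zinc finger factor of the early neural plate, had 5 lower members of 13, which fell with their gene but further. In *Mst-/-* EBs they were between 9.13 and 10.13 at day 8 and between 10.91 and 11.95 at day 4. In wild type EBs they were between 8.04 and 8.72 and between 10.33 and 11.62. The rule used these signals, so the gap between the days is a description. The other 8 probe sets of *Zic5* had changes above -1 in *Mst-/-* EBs. *Acer2*, a Golgi ceramidase, had 4 lower members, 2 of which were lower at day 8 in a gene that was higher. Probe set 4904391 was at 10.87 and 11.45 in *Mst-/-* EBs and at 10.33 and 11.17 in wild type EBs, while the gene was at 9.53 and 8.22 and at 10.10 and 7.54.

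**Figure D4:**
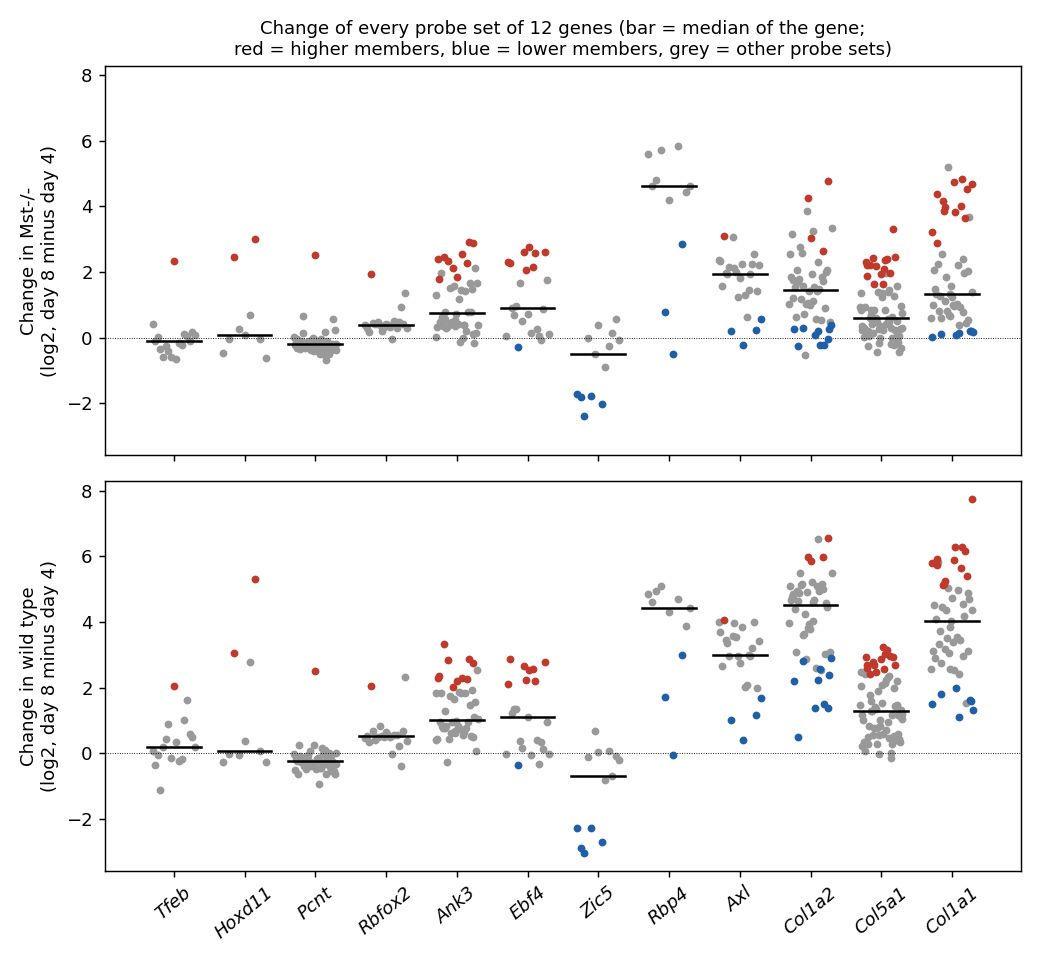
Change between day 4 and day 8 (log2, day 8 minus day 4) of every probe set of 12 genes in *Mst-/-* EBs (upper panel) and wild type EBs (lower panel), with the median of each gene as a bar, higher members in red, lower members in blue and other probe sets in grey. *Tfeb* and *Pcnt* have 1 red point above all others in both panels, that of *Rbfox2* has a grey point above it in wild type EBs, the red points of *Ank3* and *Ebf4* lie at the upper end of a wide group, and *Col1a1* and *Col1a2* have members at both ends.

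The 17 genes with members of both directions included *Axl*, a receptor tyrosine kinase for Gas6, *Loxl2*, which crosslinks collagen, *Fxyd5*, a modulator of the sodium pump, *Fras1* and *Col4a1*, of basement membranes, *Aebp1*, a collagen-binding protein, *Slc13a4*, a sulfate transporter, and *Fam114a1* and *Nol4l*. In *Axl*, the higher member was at 10.57 at day 8 and 7.48 at day 4 in *Mst-/-* EBs and at 12.17 and 8.12 in wild type EBs, and lower member 5092754 at 9.28 and 9.49 and at 9.77 and 9.36. In *Fam114a1* the 2 higher members had departures of 1.5 to 1.66 and the 3 lower members of -1.87 to -1.12, and 1 of these 5, a higher one, stayed past the threshold with values under 7 raised to 7. Day 4 signals, which the rule used, differed between the directions. The brightest higher member was dimmer at day 4 than the dimmest lower member of its gene in 16 of the 17 genes in *Mst-/-* EBs and in 14 of 17 in wild type EBs. With values under 7 raised to 7, the departures of the higher members of *Col4a1*, *Fras1*, *Loxl2* and *Nol4l*, and of 1 higher member each of *Col1a2* and *Ebf4*, turned negative in both genotypes, and that of 1 *Col5a1* member in *Mst-/-* EBs. The same was seen in both genotypes for the higher members of *Arhgap29* (-0.03 in *Mst-/-* and -0.31 in wild type EBs) and *Msrb3* (-0.54 and -0.075), also among the 17.

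The same held over all members. At day 4 higher members were a median of 1.33 below their gene, and 132 of 155 (85.2%) were below it, against 45.9% of all probe sets tested. Lower members were a median of 0.80 above their gene, and 138 of 194 were above it, against 66218 of all 126253 probe sets tested. The rule subtracts the day 4 signal, so part of this contrast at day 4 is set by the choice of members. At day 8 the medians were 0.10 above for higher members and 0.59 below for lower members. Both day 4 signals were at or under 7.5 for 80 higher members and 4 lower members, and all 4 signals were above 7.5 for 47 of 155 higher and 167 of 194 lower members. How far dim signals made these departures was not tested beyond raising the values. Members also shared genes. Of the 183 genes, 114 held 1 member, 41 held 2 and 28 held 3 or more, and these 28 held 153 members (43.8%). Members of 1 gene share its transcripts and its median, and are not independent.

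Gene lists gave few members outside the matrix. The lists were chosen with earlier results of these data known, so their shares are descriptions and no independent comparison with all genes. Of 30 tested matrix and adhesion genes 9 (30%) held a member, against 2.11% of all genes tested, and these 9 held 64 members. The genes were *Col1a1*, *Col1a2*, *Col2a1*, *Col4a1*, *Col4a2*, *Col5a1*, *Col6a2*, *Lama1* and *Fbln2*. The median change of that list was 0.78, against -0.03 for all genes, and 11 of its genes changed by more than 1. Of 31 genes known for alternative promoters 4 (12.9%) held a member, *Hnf4a*, *Igf2*, *Ank3* and *Tgfb2*. The median change of this list was 0.5, and 6 of its genes rose by more than 1, against 356 of all 8668. Members were more common in genes that moved, and the part of this in the share was not tested. Of 25 contractile and actin genes *Actn2* and *Myl4* did (8%). Of 33 splicing regulators *Rbfox2* alone did (3.03%), of 35 genes with exons known to differ between epithelium and mesenchyme *Fgfr3* (2.86%), and of 37 genes with exons or promoters known to switch as stem cells differentiate *Mef2d* (2.7%). *Mef2d*, a muscle and neuron factor with a muscle exon, had its member at 7.93 at day 8 and 6.55 at day 4 in *Mst-/-* EBs and at 8.46 and 6.54 in wild type EBs. Its departure was 0.65 in both genotypes with values under 7 raised to 7, so that this list then held no member. Shares of these last 3 lists were near that of all genes.

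The median signals of the 33 splicing regulators changed by -0.645 to 0.50 in *Mst-/-* EBs and by -0.63 to 2.60 in wild type EBs. *Esrp1*, the factor of epithelial exons, was at 10.63 at day 8 and 11.09 at day 4 in *Mst-/-* EBs and at 9.98 and 10.45 in wild type EBs. *Mbnl1*, which promotes differentiated exon patterns, was at 10.49 and 10.71 in *Mst-/-* EBs and at 11.28 and 8.62 in wild type EBs, and its change was -0.30 and 2.60. *Mbnl2* changed by 0.50 and 1.72 and *Mbnl3* by -0.13 and 1.79. All 3 Mbnl genes had a larger change in wild type EBs, on 1 array per group.

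A contrast that the rule did not use, though it comes from the same arrays, is that between the genotypes. The genotype departure of a probe set is its *Mst-/-* minus wild type signal, less the median of that difference over its gene, averaged over day 8 and day 4. Over all probe sets tested it was past 0.5 in size for 3.07% and past 1 for 0.486%. Of the members, 130 of 349 (37.2%) were past 0.5 and 27 (7.74%) past 1. With values under 7 raised to 7 and members chosen anew on them, the share of those members past 1 was 3.83%. The share over all probe sets with raised values is not given. The directions differed. Higher members had a median of -0.395, and 57 of 155 were below -0.5 and 7 above 0.5. Lower members had a median of 0.32, and 56 of 194 were above 0.5 and 10 below -0.5. Below 0 lay 82.6% of higher members and 21.1% of lower members, against 49.2% of all probe sets tested. With values under 7 raised to 7 the medians of the same members were -0.27 and 0.28, and for the 47 higher and 167 lower members above 7.5 on all arrays they were -0.52 and 0.30. Probe sets that gained on their gene by day 8 were mostly lower, relative to their gene, in *Mst-/-* EBs, and those that fell behind mostly higher. The measure subtracts the difference of the gene, so a probe set level between the genotypes takes the opposite sign of its gene.

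Counted by gene, the median genotype departure of the higher members was below 0 in 65 of 83 genes, and that of the lower members above 0 in 86 of 117. Without the 28 genes of 3 or more members the counts were 51 of 63 and 66 of 96. The higher members were at a median of -0.395 at day 8 and -0.35 at day 4. The lower members were at 0.305 and 0.215. Both days thus carried the same sign. Medians of the genes also differed by genotype: genes with a lower member had a median difference of -0.375 at day 8 and -0.275 at day 4, and genes with a higher member of -0.205 and -0.03. For the 112 lower members around a moving gene, the gene differences were -0.435 and -0.38, and the median genotype departure was 0.28. At their medians, gene difference and departure had opposite signs for lower members and the same sign for higher members. The part of these gene differences in the genotype departures was not tested.

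Some single members had large genotype departures, which can come from the probe set, from its gene or from both. The *Tfeb* member was lower in *Mst-/-* EBs on both days, as given above, while its gene was higher there, and its genotype departure was -1.305. *Rpl39* had 1.87, or 0.695 with values under 7 raised to 7, *Igf2* 1.66 and 1.52, and *Tgfb2* 0.95. *Igf2* 4506045 was at 9.76 in *Mst-/-* and 10.22 in wild type EBs at day 8, and at 9.53 and 9.92 at day 4. Its gene differed more, by -1.25 at day 8 and -2.92 at day 4. The *Tgfb2* member was at 10.33 and 10.53 at day 4, where its gene was at 7.69 and 10.24. *Col5a1* probe set 5291892 had -1.28, or -0.64 with raised values, and was at 9.02 at day 8 and 5.71 at day 4 in *Mst-/-* EBs and at 10.82 and 7.89 in wild type EBs. By contrast, *Hoxd11* had -0.085 and -0.125, and the *Mia2* members 0.24 to 0.645. The -0.085 of *Hoxd11* 5396842 averaged opposite differences. This probe set was at 7.77 in *Mst-/-* and 9.14 in wild type EBs at day 8, and at 4.75 and 3.83 at day 4. With raised values *Hoxd11* 5396842 had -0.525. Among genes with many members, *Zic5* had 0.52 to 0.68 over all 5 members.

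**Figure D5:**
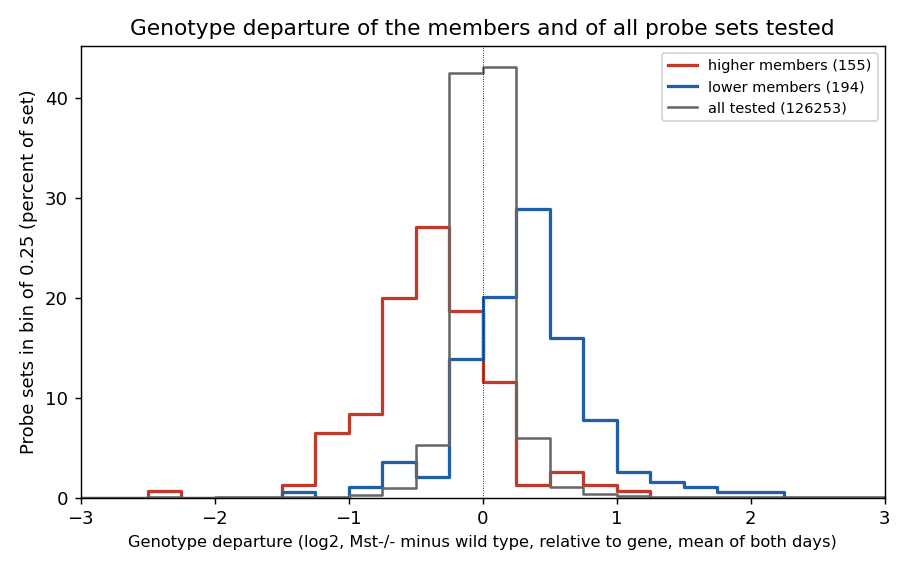
Share of probe sets (y axis, percent of each set in bins of 0.25) by genotype departure (x axis, log2, *Mst-/-* minus wild type relative to the gene, mean of both days) for higher members (red), lower members (blue) and all probe sets tested (grey). The red distribution lies left of 0 (median -0.395), the blue one right of it (median 0.32) and the grey one around 0.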

How the data were processed

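Each of the 4 EB groups (*Mst-/-* and wild type, day 8 and day 4) had 1 Affymetrix exon array. The authors deposited a log2 signal for every probe set. Affymetrix Expression Console is the tool in the submitters' processing notes. Its version, the normalization and the genome build of the probe sets are not given in the sources used here, and no coordinate of a probe set was used. The study's methods name Partek, Genespring and a threshold of 1.5-fold for genes. Sorted array by array, values of equal rank differed by at most 0.17, and no further scaling was applied.

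Of 229581 probe sets, 209279 had 1 gene symbol, 4446 had several and 15856 had none, and only the first were used. Of 16380 array symbols, 14190 were current in RefSeq GRCm38.p6, 2145 were found as a synonym and 45 had no single match and stayed as written, which gave 16358 genes. Of these, 8668 had at least 5 probe sets and a median above 7.5 on all arrays, and of their 134745 probe sets 126253 passed the floor of 7.5 on at least 1 array. Departures were rounded to 4 decimals.

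The members and the gene lists were chosen with earlier results of these data known. Named genes were the 12 with the largest departures in each direction, the 12 with the most members, up to 12 with both directions, list genes with a member and those at the threshold. *Tfeb*, the opposite-sided probe sets, *Arhgap29*, *Msrb3*, *Dlc1* and *Homer2* were added after their values were seen. Predicted genes and olfactory and vomeronasal receptors were counted but not named. With 1 array per group no test was made, and the number of arrays limits the precision.

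Alternatives changed 1 choice at a time: the threshold, the center of the gene (mean, other probe sets, probe sets above 7.5), the scaling, both floors, values raised to 7, the minimum number of probe sets and, chosen after seeing the data, array symbols as written. The computation was tested on simulated arrays. The work was done in Python 3.11.15 (numpy 2.4.6, pandas 2.3.3), and plots were drawn with matplotlib 3.10.9.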

Additional observations from a re-analysis of the deposited data

Results flagged for a closer look

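*Inpp5d*, which codes for the inositol phosphatase SHIP1 of blood cells, held 1 higher member and was the sole gene with a member whose median moved by more than 0.5 in opposite directions in the genotypes. Its median over 34 probe sets changed by -0.89 in *Mst-/-* EBs and by 1.005 in wild type EBs. The gene was at 8.91 at day 8 and 9.87 at day 4 in *Mst-/-* EBs, and at 8.96 and 7.80 in wild type EBs. The member, probe set 5534932, was at 6.66 and 4.66 in *Mst-/-* EBs and at 8.69 and 5.73 in wild type EBs, so that it was higher at day 8 in both. Its genotype departure of -2.45 was the lowest of all members. With values under 7 raised to 7 its departures were 0.89 in *Mst-/-* EBs and 0.74 in wild type EBs, within the threshold, and its genotype departure was -1.75. The difference between the genotypes was not tested, since there was 1 array per group.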

How the results depend on the processing

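The 349 members became 644 with a threshold of 0.8 (265 higher, 379 lower, 347 genes) and 89 with 1.5 (49, 40 and 56), 91 with a gene median above 8.5 (27, 64 and 64), 1251 with no floor on the gene median (718, 533 and 581), and 214 with probe sets above 7.5 on all arrays (47 higher). The other counts stayed within 1.5 times, from 285 to 400 members. With values under 7 raised to 7 there were 287, of which 252 were among the 349 (250 in the same direction, since 1 member each of *Ttr* and *Loxl2* turned round), and with the mean in place of the median 318, of which 271 were. The share of probe sets past the threshold in *Mst-/-* EBs that passed it in wild type EBs (27.9%) was 22.4% with a gene median above 8.5, 35.6% with no such floor, 32% with probe sets above 8.5 and 30.8% with probe sets above 7.5 on all arrays. The reverse share (25.3%) was 20.6% with a threshold of 1.5, 19.4% with a gene median above 8.5 and 28.9% with no floor. The share of members with a genotype departure past 1 (7.74%) was 12.4% with a threshold of 1.5, 5.14% with probe sets above 7.5 on all arrays and 3.83% with raised values. The share in which the gene moved (33%) was 27% with a threshold of 1.5, 50.5% with a gene median above 8.5, 23.6% with no floor and 50% with probe sets above 7.5 on all arrays. That in which the probe set moved (13.8%) was 20.9% with a gene median above 8.5, 4.67% with probe sets above 7.5 on all arrays, 8.42% with probe sets above 8.5 and 8.81% with the mean. The cause was not tested, beyond the fewer or more probe sets that each floor or threshold admits. Of 2380 departures of the 170 named members under 7 alternatives, 17 changed sign, 16 with raised values and 1 with array symbols as written, and 40 moved by more than the SD of departures within the gene. Members of *Arhgap29*, *Msrb3*, *Dlc1* and *Homer2* were not among the 170. With raised values the departures in *Mst-/-* and wild type EBs were -1.33 and -1.45 in *Ttr*, -2.27 and -1.78 in *Loxl2*, -1.32 and -0.905 in *Fras1*, -1.035 and -0.08 in *Col1a2*, -0.25 and -0.81 in *Col4a1*, -0.53 and -0.22 in *Ebf4*, and -0.81 and -0.44 in *Nol4l*, and in *Mst-/-* EBs alone -0.305 in *Actn2* and -0.535 in *Col5a1*. With array symbols as written that of *Mia2* 4489657 was -0.355 in *Mst-/-* EBs. No paired analysis was possible because each group had 1 array and no result came from a test. Without replicates the spread of a departure between EB cultures is unknown, signals under the floor limit the higher members most, and genotype, ES cell line and array cannot be told apart.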
